A study of Homo sapiens with 18 samples.

Results

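Ly1 cells given SGC-GAK-1 at 1 µM for 12 h were compared with Ly1 cells given the solvent, DMSO, over all measured genes. The samples were chosen by their titles alone, and they are 6 of the 18 in the series, with 3 libraries of treated cells and 3 of DMSO cells, numbered as replicates 1, 2 and 3 in each group. Ly1 is an established human lymphoma line, of the diffuse large B cell kind, and the submitters label it as GCB, the germinal centre type. The labels name no engineered change in either group, and both were grown in the same medium with serum. A single line stands for the tumour type here. The labels give no hour for the DMSO libraries, which also serve as the controls of a group treated for 24 h. They do not say whether the replicates were separate cultures, so the tests rest on the spread between libraries, which may be technical.

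GAK, the cyclin G-associated kinase, acts with the chaperone HSC70 in taking clathrin coats off vesicles, and it is also needed for the mitotic spindle and centrosomes. SGC-GAK-1 is a small molecule that inhibits its kinase activity. In dividing cells the genes for mitosis are transcribed mainly in G2 and M phase. The DREAM complex holds them off early in the cycle, and B-MYB and FOXM1 activate them later, largely through a promoter element called CHR and through CCAAT boxes bound by NF-Y. The comparison therefore asks how the transcriptome of a GCB line stands early after an inhibitor of a kinase tied to both trafficking and mitosis. The series holds no inactive compound and no loss of GAK, so changes through GAK and through other actions of the compound cannot be told apart.

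The 6 libraries held 22549853 to 29386802 counts in genes, and 3 counts, the limit that a count of 0 allows, amounted to 0.101 to 0.128 CPM (a gene's counts relative to the TMM-scaled library total, the unit of all levels given here), for counting error only. B cell markers were present in both groups, with MS4A1, CD79A, CD79B, CD22 and PAX5 all above 1 CPM. Of 6 germinal centre markers, BCL6, MME, MYBL1 and S1PR2 were expressed, while LMO2 did not exceed 0.0801 CPM and SERPINA9 did not exceed 1.07 CPM in any library. Most markers of other cells were near 0. Of 12 myeloid markers 0 reached 1 CPM, with summed levels of 0.341 to 0.761 CPM at 12 h and 0.355 to 1.11 CPM in DMSO. Of 15 T and NK cell markers 2 did (TRAC and PRF1), with sums of 31.0 to 33.8 CPM at 12 h and 32.1 to 36.3 CPM in DMSO. Of 12 fibroblast and endothelial markers 1 did (PECAM1, sums 3.04 to 4.35 CPM at 12 h and 2.33 to 4.92 CPM in DMSO), and of 10 epithelial markers 1 did (EPCAM, sums 3.97 to 5.37 CPM at 12 h and 3.63 to 5.13 CPM in DMSO).

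DMSO replicate 3 stood apart from the other DMSO libraries. Among 7130 genes with at least 20 CPM in a DMSO library, 109 were over 2-fold higher in it than the mean log2 level of the others and 8 were over 2-fold lower, while by the same measure 12 h replicate 3 had 7 higher and 1 lower of 6966, and 12 h replicates 1 and 2 had 0 in either direction. The 3 protein-coding genes with the largest excess in DMSO replicate 3, among those averaging at least 20 CPM in DMSO, were AK4, NDUFA4L2 and PFKFB4, which are known as hypoxia-responsive genes. AK4, a mitochondrial adenylate kinase, had 3.07, 2.76 and 5.604 CPM in 12 h replicates 1, 2 and 3, against 4.08, 3.83 and 83.8 CPM in DMSO. PFKFB4, an enzyme that sets the level of a regulator of glycolysis, had 10.5, 8.93 and 16.05 CPM at 12 h, against 9.68, 10.2 and 146 CPM in DMSO, and NDUFA4L2, a relative of a respiratory chain subunit, had 2.81, 3.64 and 5.79 CPM at 12 h, against 3.64, 3.67 and 59.6 CPM in DMSO. In the other direction ID3, an inhibitor of E protein transcription factors in B cells, had 140.1, 134 and 77.5 CPM at 12 h, against 160.2, 166 and 62.2 CPM in DMSO, so that both replicate 3 libraries were low.

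Without pairing, edgeR called 0 of 14005 genes at an adjusted p under 0.05 (0% of genes, smallest adjusted p = 0.232). At an unadjusted p under 0.05 there were 390 higher (2.78% of genes) and 468 lower (3.34%), and DESeq2 called 94 and limma voom 0. Libraries with the same number deviated together in these 2 groups, and the fit of the 6 libraries with the replicate number as a block, called the paired fit below, called 123 of 13661 genes, with 89 higher (0.651%) and 34 lower (0.249%). The pairing rests on that shared deviation in the same data, as the labels do not say what a replicate number stands for. With the same block over the 9 Ly1 libraries 0 genes were called. Of the 123, 120 were protein-coding and 114 changed by less than 2-fold, with a median size of 0.51 on the log2 scale. All 123 moved the same way in each replicate number, which a fit on pairs favours. Over all genes tested without pairing 17.4% were higher and 17.5% lower in each number. In 108 of the 123 the 2 groups did not overlap (7.8% of all genes without overlap higher and 7.3% lower). DESeq2 shared 70 of these calls (56.9% of the 123 and 74.5% of its own 94), all in the same direction. Throughout, "rose" and "fell" refer to calls of the paired fit, while log2 fold changes and their SEs over the group, list medians included, are those of the fit without pairing unless the paired fit is named. The paired count was 0 without both replicate 1 libraries, 200 without both replicate 2 libraries and 1526 without both replicate 3 libraries. Without pairing the count was 88 without DMSO replicate 3 and 6 without 24 h replicate 3, and 0 when any other single library was left out.

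The change in replicate 3 resembled the others less. Across 9470 genes of at least 5 CPM, which are not independent replicates, the 12 h change in replicate 1 correlated with that in replicate 2 with r = 0.62, and 66.5% of genes had the same sign. For replicates 1 and 3 these values were 0.09 and 51.5%, and for replicates 2 and 3 they were 0.20 and 56.7%. The SD of the change over genes was 0.20, 0.21 and 0.29 on the log2 scale in replicates 1, 2 and 3. Of these genes 15, 11 and 5 were over 2-fold higher at 12 h in replicates 1, 2 and 3, and 0, 0 and 70 were over 2-fold lower.

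**Figure D1:**
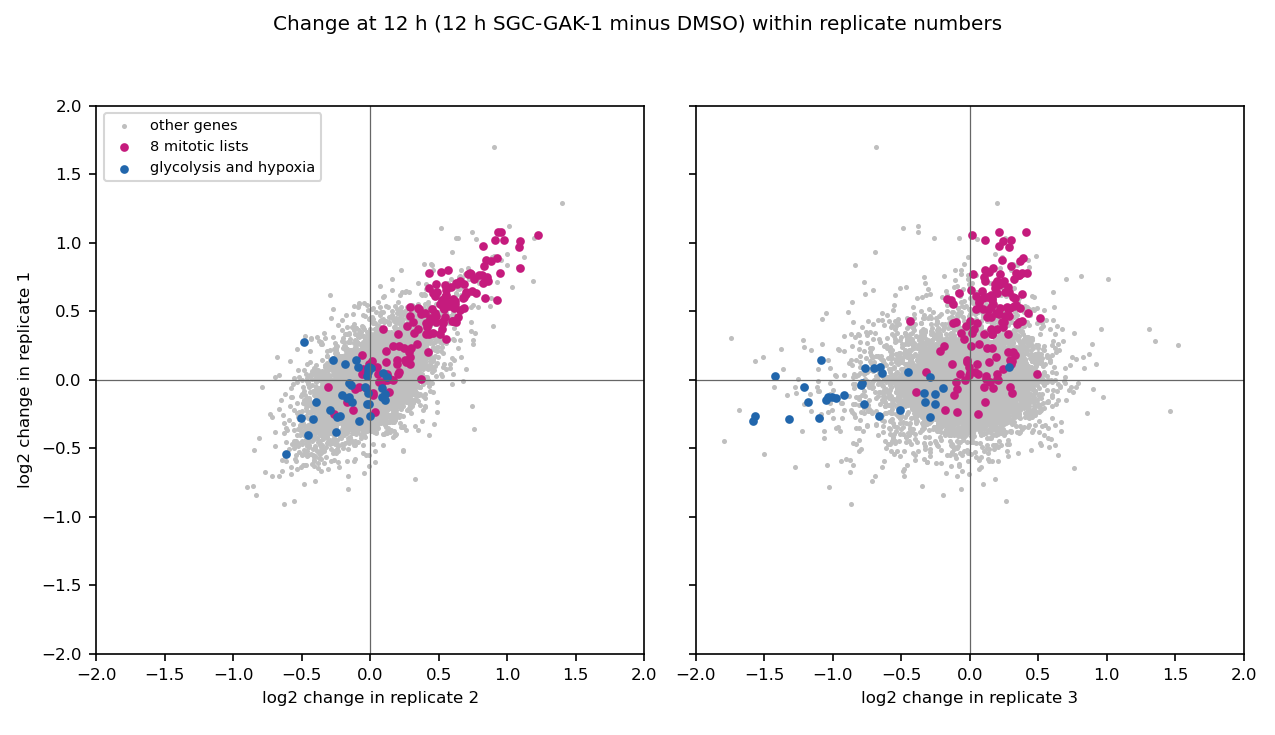
Change of each of 9470 genes at 12 h (log2 CPM of the 12 h library minus that of the DMSO library with the same number) in replicate 1, on the vertical axis, against replicate 2 (left) and replicate 3 (right), with 12 genes outside the axes. The medians of the 8 mitotic lists together are 0.46, 0.48 and 0.16 in replicates 1, 2 and 3, although single genes of these lists lie below 0, and glycolysis and hypoxia genes spread to the left in replicate 3.

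Of the 89 rises 38 were genes of the 8 mitotic lists, which hold 146 of the 13661 genes of the paired fit. These lists were chosen with earlier results of these data known. KPNA2 (ENSG00000182481.9, chromosome 17, 68035708 to 68046854 on hg38), an importin alpha that carries proteins into the nucleus, had 561, 573 and 555 CPM in 12 h replicates 1, 2 and 3, against 394, 397 and 401 CPM in DMSO. Its 12 h libraries were all above its DMSO libraries, and it rose by 0.50 ± 0.08 on the log2 scale (SE), with an adjusted p = 0.0156 in the paired fit and 0.25 without pairing. Its change was 0.51, 0.53 and 0.47 in replicates 1, 2 and 3, so that replicate 3 was close to the others. CDC20 (ENSG00000117399.14, chromosome 1, 43358981 to 43363203 on hg38), the activator of the anaphase-promoting complex, had 248, 251 and 224 CPM at 12 h, against 136, 136 and 173 CPM in DMSO. The groups did not overlap, and it rose within replicates 1, 2 and 3 by 0.87, 0.88 and 0.37 (paired adjusted p = 0.0205). CENPA (ENSG00000115163.15, chromosome 2, 26764289 to 26801067 on hg38), the histone H3 variant that marks centromeres, was, with RPS27L, the largest rise among the named genes above 5 CPM. It had 34.9, 30.9 and 33.6 CPM at 12 h, against 16.4, 16.2 and 25.2 CPM in DMSO, so it was 0.78 ± 0.16 higher on the log2 scale (SE) without pairing and 0.81 ± 0.12 in the paired fit (adjusted p = 0.024), with 1.08, 0.93 and 0.41 by replicate.

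KIF4A (ENSG00000090889.12, chromosome X, 70290104 to 70420886 on hg38), a kinesin that works with chromosomes and the central spindle, had 97.1, 102 and 92.8 CPM at 12 h, against 54.6, 57.3 and 75.2 CPM in DMSO, and 0.83, 0.83 and 0.30 by replicate (paired adjusted p = 0.0279). BIRC5, which encodes survivin of the chromosomal passenger complex, had 231, 227 and 222 CPM at 12 h, against 136, 131 and 173 CPM in DMSO. TTK, the spindle checkpoint kinase MPS1, had 80.2, 80.3 and 77.3 CPM at 12 h, against 48.3, 47.6 and 61.7 CPM in DMSO. For all 3 the 12 h libraries lay close together and above DMSO, and DMSO replicate 3 lay between. ERCC6L, a helicase of mitotic DNA bridges, DEPDC1 and DEPDC1B, SHCBP1 of the midbody, SAPCD2, which takes part in spindle orientation, KIF20A and ECT2 also rose, with log2 fold changes of 0.52 to 0.76. Paired adjusted p-values of these 7 were 0.0157 to 0.035. Outside mitosis, GGH, gamma-glutamyl hydrolase of folate metabolism, had 23.7, 21.8 and 22.1 CPM at 12 h, against 15.6, 15.3 and 17.2 CPM in DMSO (paired adjusted p = 0.0467). VDR, the vitamin D receptor, was as tight, with 6.39, 6.73 and 6.02 CPM at 12 h, against 3.81, 4.06 and 3.68 CPM in DMSO, and just outside the threshold (paired adjusted p = 0.0513).

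**Figure D2:**
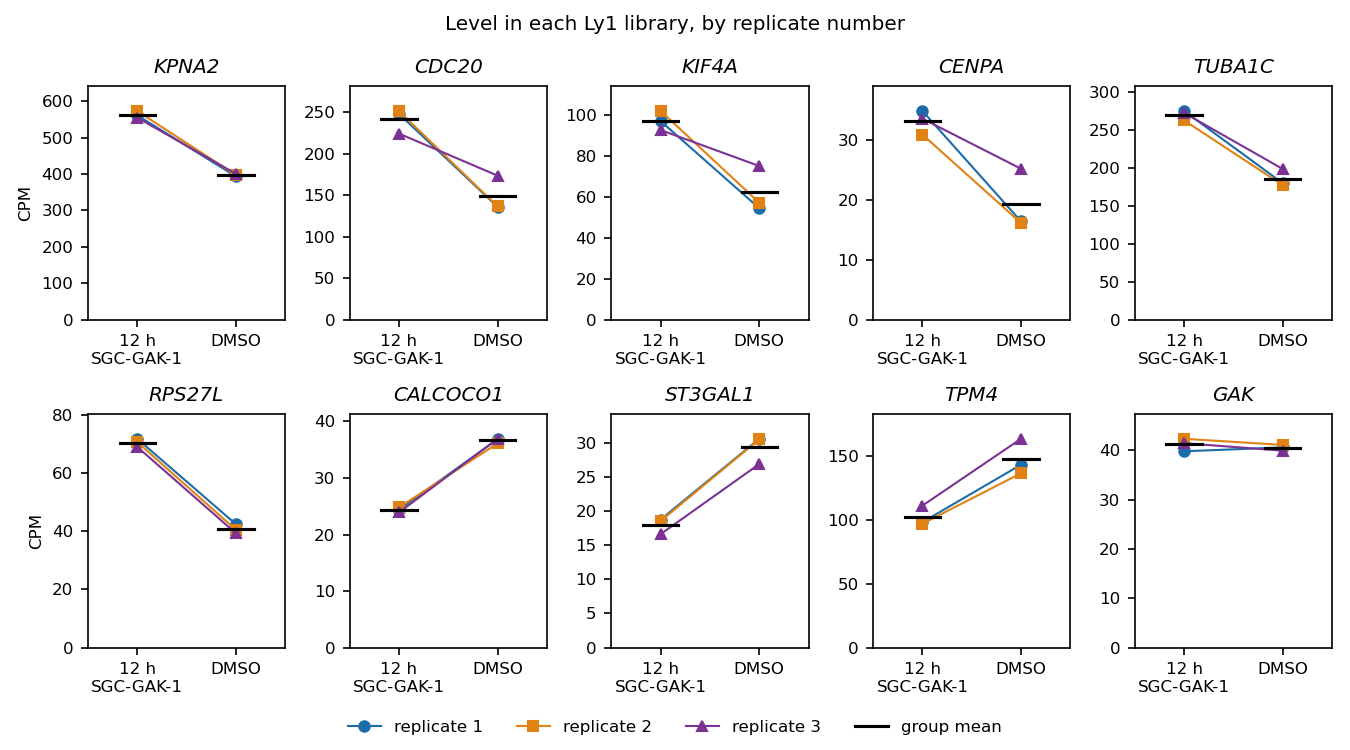
Level in CPM (vertical axes, from 0) of 10 genes in the 12 h and DMSO libraries, with lines joining libraries of the same replicate number and black bars at group means (n = 3 each). KPNA2, CDC20, KIF4A, CENPA, TUBA1C and RPS27L were higher at 12 h, and CALCOCO1, ST3GAL1 and TPM4 lower in each replicate number, while GAK averaged 41.2 CPM at 12 h and 40.5 CPM in DMSO.

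The promoters of 4 of these genes and of RPS27L, a p53 target that also rose, are shown because the first 4 hold both of the letter sequences named above and the last holds neither. Each is 250 bases before to 50 bases after the start, from RefSeq on GRCh38.p14, 5′ to 3′ on the gene's strand. Capitals mark the letters TTTGAA, a CHR-type sequence, and CCAAT, searched on both strands, where they read TTCAAA and ATTGG. The windows are chr1:43358731-43359030 for CDC20, chrX:70289854-70290153 for KIF4A, chr2:26785806-26786105 for CENPA and chr17:68035485-68035784 for KPNA2, on the plus strand, and chr15:63157428-63157727 for RPS27L, on the minus strand.
CDC20: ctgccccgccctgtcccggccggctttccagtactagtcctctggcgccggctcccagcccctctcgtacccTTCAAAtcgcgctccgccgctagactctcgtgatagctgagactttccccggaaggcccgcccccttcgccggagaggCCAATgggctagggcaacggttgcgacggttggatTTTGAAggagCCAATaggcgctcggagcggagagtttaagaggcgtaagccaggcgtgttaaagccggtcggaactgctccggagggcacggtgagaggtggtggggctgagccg
KIF4A: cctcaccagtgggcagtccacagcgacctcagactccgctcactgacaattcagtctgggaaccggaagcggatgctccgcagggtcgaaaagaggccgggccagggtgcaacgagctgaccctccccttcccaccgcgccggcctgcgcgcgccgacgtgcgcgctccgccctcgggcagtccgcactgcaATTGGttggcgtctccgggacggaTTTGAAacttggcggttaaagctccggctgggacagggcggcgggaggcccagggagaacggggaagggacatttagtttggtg
CENPA: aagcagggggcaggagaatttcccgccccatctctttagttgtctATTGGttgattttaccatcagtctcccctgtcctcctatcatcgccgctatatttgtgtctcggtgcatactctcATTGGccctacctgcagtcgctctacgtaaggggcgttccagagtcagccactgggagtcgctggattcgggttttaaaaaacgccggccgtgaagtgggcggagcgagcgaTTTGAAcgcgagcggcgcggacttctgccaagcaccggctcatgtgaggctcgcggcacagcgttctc
KPNA2: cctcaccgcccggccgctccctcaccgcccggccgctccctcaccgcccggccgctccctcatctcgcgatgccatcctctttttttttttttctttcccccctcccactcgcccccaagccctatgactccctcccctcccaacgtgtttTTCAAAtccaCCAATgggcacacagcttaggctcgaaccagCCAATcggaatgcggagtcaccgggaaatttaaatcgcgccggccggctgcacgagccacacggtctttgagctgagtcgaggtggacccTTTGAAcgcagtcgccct
RPS27L: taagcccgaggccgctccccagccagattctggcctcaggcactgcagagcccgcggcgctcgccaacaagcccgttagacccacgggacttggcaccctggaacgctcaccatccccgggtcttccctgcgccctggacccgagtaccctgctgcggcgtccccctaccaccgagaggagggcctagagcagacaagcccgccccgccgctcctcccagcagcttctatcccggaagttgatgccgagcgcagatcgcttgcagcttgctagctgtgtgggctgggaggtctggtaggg
In KIF4A the TTTGAA match began 34 bases before the start and a CCAAT match 58 bases before it. In CENPA the TTTGAA match began 18 bases before the start, and CCAAT matches began 130 and 205 bases before it. In CDC20 TTTGAA matches began 65 and 178 bases before the start and CCAAT matches 55 and 100 bases before it. In KPNA2 a TTTGAA match began 99 bases before the start and another 33 bases after it, with CCAAT matches 58 and 89 bases before it. Of the 18 leading genes with higher levels 13 had a window in the table, and 11 of the 13 held both sequences, the others being RPS27L and KIF20A. Of the 18 leading genes with lower levels 14 had a window, and 0 of the 14 held both. Over all 35116 windows 15.2% held TTTGAA, 34.6% held CCAAT and 5.9% held both, and over windows of tested genes these shares were 10.4%, 35.3% and 4.16%. These shares are of windows, of which a gene can have several (13892 for 9607 tested genes). The counts for the leading genes are of genes, so the 2 measures are not alike. By windows, both sequences were in 36% of 89 windows for all genes that rose in the paired fit (70 genes with a window). For all genes that fell in it, the share was 2.63% of 38 windows (22 genes with a window). Both were in 28.9% of the 173 windows of the 8 mitotic lists together, and the lists differed widely. The share was 66.7% of 15 windows for the passenger complex and cytokinesis, 57.1% of 14 for kinesins, 45.8% of 24 for cyclins and 33.3% of 12 for the spindle checkpoint. It was 26.7% of 30 for the kinetochore, 25.8% of 31 for condensins and cohesin, 9.09% of 33 for the anaphase-promoting complex and 4.55% of 22 for mitotic kinases. Among windows of S phase genes it was 1.89% of 53. A match is a description of these letters only.

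Across the 8 lists of mitotic genes together, which hold 147 genes, 133 of 146 tested were above 0 at 12 h and 13 below, and the median was 0.35 on the log2 scale. Over all 14005 genes 6822 were above 0, with a median of -0.01. In the paired fit 38 of the 146 rose (0.651% of all genes) and 0 fell (0.249%). Without pairing 81 were higher (2.78% of all genes) and 0 lower (3.34%) at an unadjusted p under 0.05. Within replicates 1, 2 and 3 the median was 0.46, 0.48 and 0.16. The change was positive in each replicate number for 108 (17.4% of all genes, and 17.5% negative), and all 12 h libraries were above all DMSO libraries for 75 (7.8% of all genes, and 7.3% below). In bulk RNA, a larger share of cells in G2 and mitosis and more RNA per cell cannot be told apart. DMSO replicate 3 was 0.34 above the other DMSO libraries by the median of these genes, and without it the fitted median was 0.47. The 12 h libraries stood at 0.13, 0.18 and 0.21 relative to the mean of the 6 libraries in replicates 1, 2 and 3, and the DMSO libraries at -0.30, -0.29 and 0.04, so the 12 h libraries were alike and DMSO replicate 3 lay between.

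Of the cyclins, CDK1 and their regulators, 17 of 17 were above 0 and 7 rose, with a median of 0.40 (0.51, 0.47 and 0.25 by replicate). CDK1, the kinase that drives entry into mitosis, had 169.9, 169 and 166 CPM at 12 h, against 123, 121 and 138 CPM in DMSO (paired adjusted p = 0.0362). GTSE1, which stabilises microtubules in G2 and M, rose by 0.56 and the phosphatase CDKN3 by 0.62 (paired adjusted p = 0.0205 for both). CCNB1, which encodes cyclin B1, had 224, 210.1 and 214 CPM at 12 h, against 106, 108 and 184 CPM in DMSO. Its groups did not overlap, but its change was 1.08, 0.95 and 0.21 by replicate, and it passed neither the paired fit (adjusted p = 0.185) nor the unpaired one (0.455), and was called without DMSO replicate 3 (adjusted p = 0.0135). HMMR, a spindle assembly factor, had a log2 fold change of 0.63 ± 0.14 (SE) and also missed (paired adjusted p = 0.0644). Of the anaphase-promoting complex, its regulators and its substrates, 15 of 20 were above 0 and 2 rose, with a median of 0.12. These were CDC20 and PTTG1, which encodes securin (0.49, paired adjusted p = 0.0461). The ubiquitin-conjugating enzymes UBE2C and UBE2S, which serve that complex, had 0.46 and 0.41 without passing (paired adjusted p = 0.0503 and 0.053).

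Mitotic kinases had a median of 0.47, with 14 of 17 above 0 and 7 called as rises (0.60, 0.59 and 0.21 by replicate). NEK2, which separates centrosomes, had 67.7, 63.2 and 64.8 CPM at 12 h, against 39.8, 35.8 and 50.5 CPM in DMSO, and rose by 0.63 (paired adjusted p = 0.0205). BUB1B, which encodes the checkpoint protein BUBR1, rose by 0.53 (paired adjusted p = 0.0205). PLK1, a kinase of centrosome maturation and mitotic exit, had 215, 200.1 and 212 CPM at 12 h, against 106, 106 and 172 CPM in DMSO, and by replicate 1.02, 0.91 and 0.30. It was just outside the paired threshold (adjusted p = 0.0663) and inside without DMSO replicate 3 (0.00248). Kinesins were above 0 in 13 of 13, with 6 rises and a median of 0.48 (0.69, 0.71 and 0.20 by replicate). KIF20A, which acts in cytokinesis, had 110.0, 111 and 112 CPM at 12 h, against 59.5, 58.1 and 85.5 CPM in DMSO, and KIF23, of the centralspindlin complex, and KIF18A, which limits microtubule length, rose by 0.48 and 0.56 (paired adjusted p = 0.0422 and 0.0442).

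The list of passenger complex and cytokinesis genes had the highest median of the 8, 0.51, with 17 of 17 above 0 and 9 rises (0.70, 0.68 and 0.21 by replicate). Besides BIRC5, CEP55, which recruits the abscission machinery, and TPX2, which activates Aurora A at the spindle, rose by 0.52 and 0.51 (paired adjusted p = 0.0259 and 0.0431). Kinetochore and centromere genes were above 0 in 28 of 31, with 5 rises and a median of 0.32 (0.39, 0.36 and 0.17 by replicate). SPC25, of the NDC80 complex, had 50.3, 48.98 and 51.7 CPM at 12 h, against 34.4, 32.5 and 40.9 CPM in DMSO. CENPM rose by 0.36 and CENPN, with 0.39, missed (paired adjusted p = 0.0477 and 0.0644). For these centromere subunits DMSO replicate 3 was within 0.03 of the other DMSO libraries on the log2 scale, and the change was alike in the replicates (0.41, 0.42 and 0.34 for CENPN).

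Spindle assembly checkpoint genes were above 0 in 12 of 13, with 6 rises and a median of 0.28 (0.41, 0.43 and 0.25 by replicate). MAD2L1, which encodes the checkpoint protein MAD2, had 118, 112 and 114 CPM at 12 h, against 81.02, 75.6 and 90.97 CPM in DMSO (paired adjusted p = 0.0227). Condensins, cohesin and other chromosome structure genes were above 0 in 25 of 26, with 3 rises and a median of 0.32 (0.42, 0.51 and 0.14 by replicate). CKAP2, a microtubule-associated protein in this list, rose by 0.50 and the condensin subunit NCAPG by 0.50 (paired adjusted p = 0.0205 and 0.0382), while NCAPH had 0.41 and the cohesin subunit RAD21 0.29 (paired adjusted p = 0.0541 and 0.0804). The 8 lists share 8 genes, so their counts overlap.

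**Figure D3:**
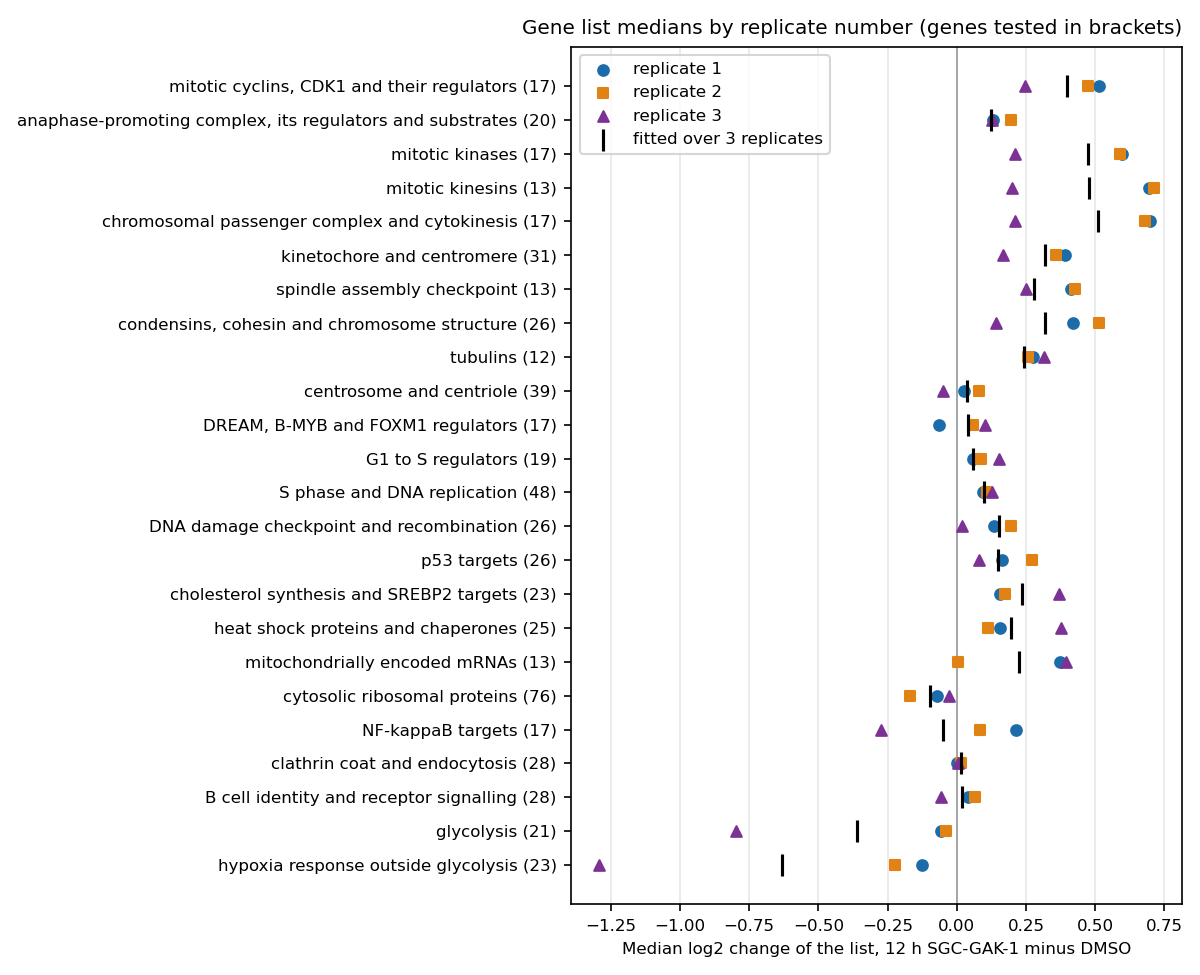
Median log2 change of gene lists at 12 h (12 h SGC-GAK-1 minus DMSO, horizontal axis) within replicates 1, 2 and 3 (symbols) and fitted over the 3 replicates (black bars). The mitotic lists lie to the right of 0 in each replicate, and glycolysis and hypoxia lists lie far to the left in replicate 3, at -0.80 and -1.29.

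Tubulin genes were higher at much the same size in each replicate number. Of 12 tested 9 were above 0 and 4 rose, with a median of 0.24 (0.28, 0.26 and 0.31 by replicate), and DMSO replicate 3 was 0.08 above the other DMSO libraries. TUBA1C (ENSG00000167553.16, chromosome 12, 49188736 to 49274600 on hg38) had 275, 263 and 272 CPM at 12 h, against 179.8, 177 and 199 CPM in DMSO, and TUBB4B had 621, 599 and 584 CPM at 12 h, against 424, 431 and 464 CPM in DMSO (paired adjusted p = 0.0156 and 0.0205). TUBA1B rose by 0.36 (paired adjusted p = 0.0331). Some tubulin genes are near-identical copies of one another, and how reads were shared among such copies is uncertain. Centrosome and centriole genes had a median of 0.04 with 24 of 39 above 0 (0.03, 0.08 and -0.05 by replicate). In that list 1 rose, STIL, a centriole duplication factor, with 73.6, 81.03 and 83.5 CPM at 12 h, against 52.5, 53.3 and 70.3 CPM in DMSO (paired adjusted p = 0.0375). HAUS5, of the augmin complex, was lower in each replicate number at -0.32 without passing (paired adjusted p = 0.119).

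Among the transcriptional regulators of these genes the DREAM, B-MYB and FOXM1 list had a median of 0.04 with 11 of 17 above 0, and 2 rose. MYBL2, which encodes B-MYB, had 452, 423 and 438 CPM at 12 h, against 297, 303 and 365 CPM in DMSO, with 0.61, 0.48 and 0.26 by replicate (paired adjusted p = 0.0289). FOXM1 had 130.1, 129.7 and 151 CPM at 12 h, against 82.98, 88.5 and 130.4 CPM in DMSO, where DMSO replicate 3 overlapped the 12 h libraries, and 0.65, 0.55 and 0.21 by replicate, with a fold change of 0.44 over the group and 0.67 without DMSO replicate 3 (paired adjusted p = 0.039). LIN9 and LIN54, subunits of the MuvB core, had 0.30 and 0.30 and did not pass (paired adjusted p = 0.18 and 0.159).

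Lists of earlier cell cycle phases had medians closer to 0. G1 to S regulators had a median of 0.06 with 14 of 19 above 0, and 1 rose, the repressor E2F8 (0.38, paired adjusted p = 0.0444). RB1, the retinoblastoma gene, had 3.79, 4.45 and 5.18 CPM at 12 h, against 5.804, 5.64 and 6.58 CPM in DMSO, without overlap, and did not pass (-0.42, paired adjusted p = 0.265). S phase and replication genes had a median of 0.10 with 36 of 48 above 0 and nearly the same value in each replicate (0.09, 0.11 and 0.13), and 2 rose. RRM2, a subunit of ribonucleotide reductase that was named after its values were seen, was among them, with 362, 368 and 412 CPM at 12 h, against 267, 270.3 and 351 CPM in DMSO (paired adjusted p = 0.0408). The replication licensing factor CDC6 had 0.24 and the thymidine kinase TK1 0.40 (paired adjusted p = 0.148 and 0.209), and TK1 had 108, 104 and 106 CPM at 12 h, against 66.4, 69.7 and 105 CPM in DMSO, where DMSO replicate 3 lay among the 12 h libraries.

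Genes of the DNA damage checkpoint and recombination had a median of 0.15 with 19 of 26 above 0 (0.14, 0.20 and 0.02 by replicate). Of these 1 rose, BRCA2, a homologous recombination factor, with 33.5, 38.7 and 39.7 CPM at 12 h, against 24.97, 23.2 and 29.7 CPM in DMSO (paired adjusted p = 0.0294). Histone genes of the replication-dependent kind, near-identical copies that mostly give transcripts with no poly(A) tail, had a median of 0.08 with 12 of 21 above 0 and 0 called (-0.04, 0.19 and 0.14 by replicate).

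RPS27L and BAX, both targets of p53, rose. RPS27L (ENSG00000185088.14, chromosome 15, 63125872 to 63158021 on hg38), a paralog of a ribosomal protein, had 71.9, 70.8 and 69.1 CPM at 12 h, against 42.5, 40.6 and 39.4 CPM in DMSO. Its change was 0.76, 0.80 and 0.81 by replicate, and it had the smallest adjusted p of the paired fit, 0.00375. It was also the 1 gene called when the 6 libraries were fitted without pairing (adjusted p = 0.0227). BAX, the apoptosis effector, had 149.9, 146 and 153 CPM at 12 h, against 101, 109 and 119 CPM in DMSO, without overlap (paired adjusted p = 0.024). DDB2, a nucleotide excision repair factor, had 49.6, 49.8 and 57.1 CPM at 12 h, against 20.3, 18.8 and 49.6 CPM in DMSO. In replicates 1 and 2 it was more than 2-fold higher at 12 h and in replicate 3 it changed little (1.29, 1.40 and 0.20 by replicate), and it missed in the paired fit (adjusted p = 0.361) and was called without DMSO replicate 3 (0.00267). CDKN1A, which encodes the CDK inhibitor p21, had 25.9, 28.5 and 20.8 CPM at 12 h, against 22.98, 23.3 and 27.7 CPM in DMSO, with overlapping groups and changes of 0.17, 0.29 and -0.41 by replicate, and its fitted change near 0 turned sign when libraries were scaled by their totals only. XPC was lower in each replicate number and did not pass (-0.28, paired adjusted p = 0.141). As a list p53 targets had 19 of 26 above 0, 2 rises and a median of 0.15 (0.17, 0.27 and 0.08 by replicate).

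Fewer genes fell than rose in the paired fit, 34 against 89. CALCOCO1 (ENSG00000012822.16, chromosome 12, 53708517 to 53727745 on hg38), a coactivator and receptor for selective autophagy of the ER, had 24.4, 24.8 and 23.9 CPM at 12 h, against 36.9, 36.1 and 36.9 CPM in DMSO. The groups were far apart and tight, with -0.59, -0.54 and -0.63 by replicate, and CALCOCO1 had the smallest adjusted p without pairing (0.232, and 0.0205 paired). ST3GAL1 (ENSG00000008513.16, chromosome 8, 133454848 to 133571940 on hg38), a sialyltransferase that caps O-glycans, had 18.8, 18.6 and 16.7 CPM at 12 h, against 30.6, 30.6 and 26.9 CPM in DMSO, and fell by 0.70, 0.72 and 0.69 in replicates 1, 2 and 3 (paired adjusted p = 0.0156). TPM4, a tropomyosin of actin filaments, had 98.3, 97.05 and 111 CPM at 12 h, against 143, 137 and 164 CPM in DMSO (paired adjusted p = 0.0156). MICAL1, which oxidises and disassembles actin filaments, had 26.8, 23.5 and 23.3 CPM at 12 h, against 32.8, 35.5 and 36.3 CPM in DMSO (paired adjusted p = 0.0375).

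The calcium-dependent membrane protein CPNE1, SUMF2, the ubiquitin ligase LRSAM1, the oxysterol-binding protein relative OSBPL7, N4BP2L1 and RUSF1 fell with log2 fold changes of -0.64 to -0.40 (paired adjusted p = 0.0205 to 0.0467). TXNIP, a glucose-regulated inhibitor of thioredoxin, had 149, 164 and 132 CPM at 12 h, against 207, 195 and 234 CPM in DMSO, lower in each replicate number and just outside the threshold (paired adjusted p = 0.0503). MPPE1 also missed (-0.37, paired adjusted p = 0.0644). Some of the larger falls rested on genes that were high in both replicate 3 libraries. MYL9, a myosin light chain, had 0.256, 0.881 and 2.86 CPM at 12 h, against 1.11, 1.62 and 14.6 CPM in DMSO, and ACTG2, a smooth muscle actin, had 0.298, 0.2003 and 4.88 CPM at 12 h, against 0.439, 0.276 and 25.8 CPM in DMSO, with the groups overlapping in both (paired adjusted p = 0.0205 and 0.0306). The histone demethylase KDM7A and the cholesterol exporter ABCA1 had the same shape, with 8.65, 9.13 and 15.3 and 8.05, 9.21 and 17.1 CPM at 12 h, against 13.5, 13.01 and 37.1 and 12.5, 13.01 and 35.4 CPM in DMSO (paired adjusted p = 0.0374 and 0.0278). Without DMSO replicate 3 the log2 fold change over the group was -0.01 for MYL9, against -2.08 with all libraries, and 2.32 for ACTG2, against -2.26. For KDM7A it was -0.27, against -0.94 with all libraries, for ABCA1 -0.15, against -0.82, and for FGR -0.54, against -0.94. The tyrosine kinase FGR fell without overlap, with 2.98, 2.92 and 5.11 CPM at 12 h, against 5.197, 5.52 and 10.5 CPM in DMSO, and ITGB2, a leukocyte integrin subunit, had -0.62, -0.48 and -0.85 by replicate (paired adjusted p = 0.0262 and 0.0359).

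Glycolysis and hypoxia genes were below 0 over the group, by far more in replicate 3 than in replicates 1 and 2. Of 21 glycolysis genes 0 were above 0, and the median was -0.36 on the log2 scale, with -0.06, -0.04 and -0.80 in replicates 1, 2 and 3. Of 23 hypoxia genes outside glycolysis 1 was above 0, with a median of -0.63, and by replicate -0.13, -0.22 and -1.29. In the paired fit 0 of either list were called. Without pairing 7 and 10 were lower at an unadjusted p under 0.05 (3.34% of all genes lower). DMSO replicate 3 was 0.67 and 1.17 above the other DMSO libraries by the medians of the 2 lists, and without it the fitted medians were -0.03 and -0.05. ALDOC, aldolase C, had 46.6, 44.3 and 30.2 CPM at 12 h, against 67.96, 67.99 and 194 CPM in DMSO, without overlap and lower in each replicate number (-0.54, -0.62 and -2.68), but it did not pass (paired adjusted p = 0.616). ENO1, an enolase, had 1759, 1728 and 1564 CPM at 12 h, against 1931, 1939.9 and 3076 CPM in DMSO, and LDHA, lactate dehydrogenase A, had 1124, 1087 and 988 CPM at 12 h, against 1228, 1213 and 1980.1 CPM in DMSO. DDIT4, an mTOR inhibitor induced by hypoxia and stress, had 41.00, 36.8 and 44.8 CPM at 12 h, against 50.04, 49.1 and 112 CPM in DMSO. MXI1, a MAX partner that opposes MYC, had 59.9, 57.6 and 56.04 CPM at 12 h, against 69.9, 70.6 and 79.9 CPM in DMSO, and had the smallest unadjusted p of the hypoxia list (-0.22, -0.29 and -0.51 by replicate, paired adjusted p = 0.0776).

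**Figure D4:**
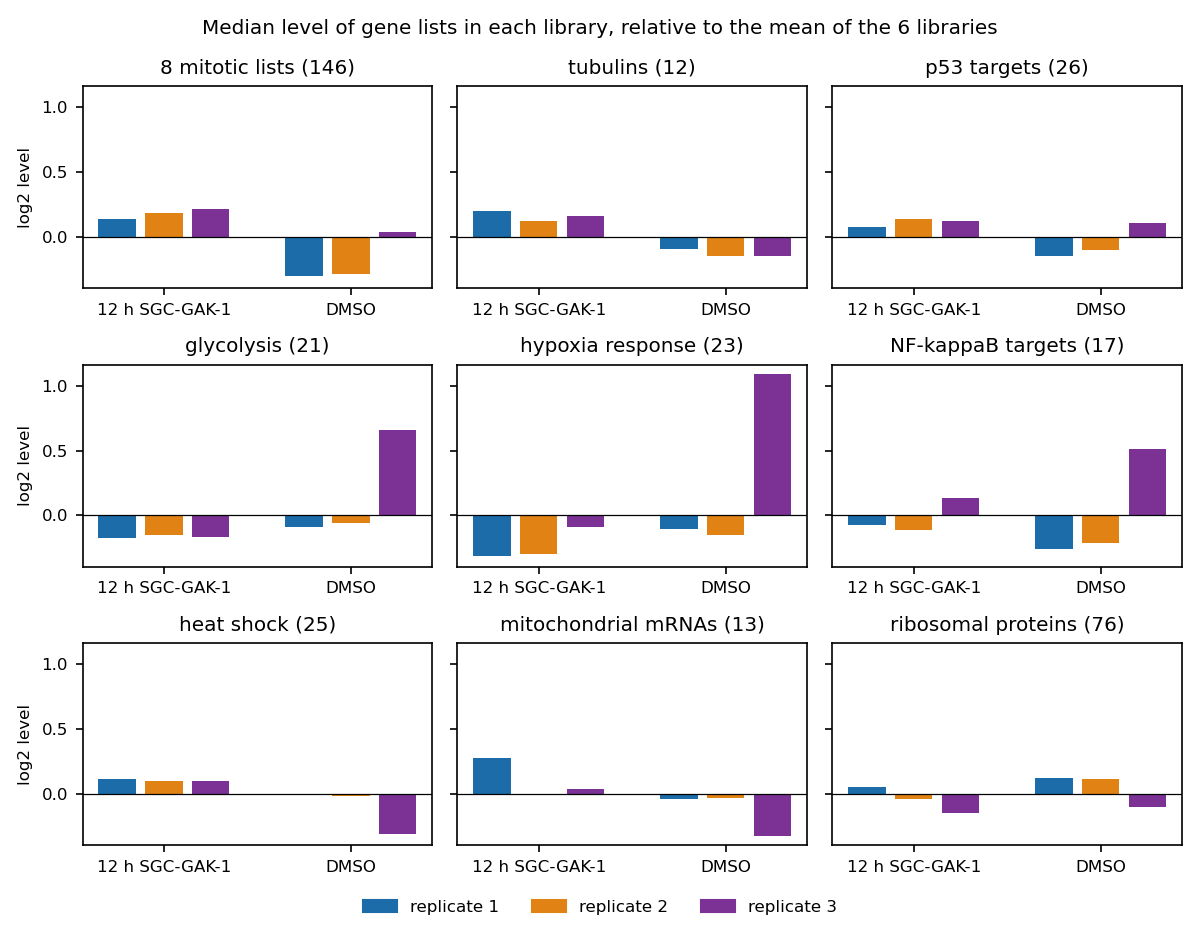
Median level of 9 gene lists in each library (log2 CPM of each gene minus its mean over the 6 libraries, vertical axis), with the number of genes in brackets and colours for replicates 1, 2 and 3. The mitotic and tubulin lists are higher in the 12 h libraries, and DMSO replicate 3 is the library that stands out for glycolysis (0.66), the hypoxia response (1.09) and NF-kappaB targets (0.51).

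Other stress lists also moved with DMSO replicate 3. Heat shock proteins and chaperones had 23 of 25 above 0 and a median of 0.20 (0.15, 0.11 and 0.38 by replicate), DMSO replicate 3 differed from the other DMSO libraries by a median of -0.33, and without it the median was 0.13. HSPA2, of the HSP70 family, was the 1 that rose, with 4.56, 4.29 and 4.803 CPM at 12 h, against 1.89, 1.89 and 2.69 CPM in DMSO (paired adjusted p = 0.0306). CHORDC1, an HSP90 cochaperone, had 0.37, 0.34 and 0.96 by replicate and HSPA1B, which shares reads with a near-identical copy, 0.37, 0.23 and 1.31, and neither passed (paired adjusted p = 0.0809 and 0.295). NF-kappaB targets had medians of 0.22, 0.09 and -0.27 by replicate and 0 called. Genes of the ER unfolded protein response had -0.15, -0.12 and 0.25 by replicate and 0 called. Of 25 ATF4 and amino acid stress genes 1 rose, SLC7A5, the large neutral amino acid transporter, with 227, 224 and 287 CPM at 12 h, against 172, 169 and 213 CPM in DMSO and almost the same change in each replicate (0.40, 0.41 and 0.43, paired adjusted p = 0.0232). DDIT3, which encodes CHOP, had 2.77, 2.48 and 4.16 CPM at 12 h, against 4.42, 5.32 and 4.62 CPM in DMSO and did not pass. Of 35 interferon-stimulated genes 1 rose, TRIM22 (0.42, paired adjusted p = 0.0443), and the list had a median of 0.06.

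In metabolism, cholesterol synthesis and SREBP2 targets had 22 of 23 above 0 with a median of 0.23 (0.16, 0.17 and 0.37 by replicate) and 0 called. MSMO1, a sterol methyl oxidase, had 127, 123 and 149.5 CPM at 12 h, against 114, 109 and 106 CPM in DMSO, and MVD, mevalonate decarboxylase, had 64.7, 62.4 and 78.6 CPM at 12 h, against 53.4, 57.3 and 63.1 CPM in DMSO (paired adjusted p = 0.177 and 0.196). The exception, TM7SF2, was lower in each replicate number (-0.25, paired adjusted p = 0.231). Mitochondrially encoded mRNAs were above 0 in 13 of 13 with a median of 0.23, but it was 0.37, 0.00 and 0.39 in replicates 1, 2 and 3. MT-ATP8, a subunit of ATP synthase whose gene overlaps MT-ATP6, was the 1 that rose, with 295, 267 and 274 CPM at 12 h, against 204, 229 and 205 CPM in DMSO (paired adjusted p = 0.0437). The 75 nuclear-encoded genes of oxidative phosphorylation had a median of 0.03 and 0 called. Cytosolic ribosomal protein genes were below 0 in 73 of 76, by a small amount (median -0.10, and -0.07, -0.17 and -0.03 by replicate), with 0 called. Ribosome biogenesis and lysosome genes had medians of 0.04 and 0.06 and 0 called.

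Of B cell genes, MS4A1, which encodes the surface protein CD20, rose. It had 423, 425 and 526 CPM at 12 h, against 295, 275 and 374 CPM in DMSO, without overlap, and 0.52, 0.63 and 0.49 by replicate (paired adjusted p = 0.0156). It was 1 of 28 genes of B cell identity and receptor signalling, whose median was 0.02, and the kinase SYK in the same list had -0.18 and missed (paired adjusted p = 0.367). S1PR2, a receptor that confines B cells to the germinal centre, rose with 0.53, 0.42 and 0.25 by replicate, although its groups overlapped at 62.9, 59.3 and 80.01 CPM at 12 h, against 43.4, 44.2 and 67.1 CPM in DMSO (paired adjusted p = 0.0439), and its fold change over the group was 0.39, and 0.62 without DMSO replicate 3. The other germinal centre genes did not pass, and the list had a median of 0.06 over 18 genes. IL16, a cytokine precursor in the activated B cell list, was lower in each replicate number without passing (-0.29, paired adjusted p = 0.0915). In the BCL2 family BAX was the 1 of 17 called, and BMF, a BH3-only protein, had 123, 129 and 119.6 CPM at 12 h, against 162, 166 and 131 CPM in DMSO (paired adjusted p = 0.111). MYC had 409, 425 and 390.0 CPM at 12 h, against 403, 433 and 379.5 CPM in DMSO, with overlapping groups and a log2 fold change of 0.01 ± 0.14 (SE), which changed sign when libraries were scaled by their totals only.

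GAK itself (ENSG00000178950.17, chromosome 4, 849276 to 932373 on hg38) had 39.8, 42.3 and 41.4 CPM at 12 h, against 40.6, 41.1 and 39.9 CPM in DMSO, with a difference of 0.02 ± 0.08 on the log2 scale (SE, adjusted p = 0.999) that changed sign when libraries were scaled by their totals only. The agent acts on the kinase and not on its mRNA, so this level does not check the treatment. Its relatives AAK1 and BMP2K, which phosphorylate clathrin adaptors, had -0.02 ± 0.13 and 0.20 ± 0.14 (SE), and CCNG1, which encodes its partner cyclin G1, had 83.95, 83.5 and 85.2 CPM at 12 h, against 69.5, 65.9 and 86.01 CPM in DMSO (paired adjusted p = 0.346). Of the 11 genes for GAK, its family and its partners 0 were called, with a median of 0.00. Of 28 clathrin coat and endocytosis genes 0 were called, with a median of 0.02 and 0.00, 0.02 and 0.01 by replicate.

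The 24 h group of Ly1 shares the DMSO libraries with the 12 h group, so its values are set side by side. CDC20 had 248, 251 and 224 CPM at 12 h and 288, 296 and 249.5 CPM at 24 h, against 136, 136 and 173 CPM in DMSO, and KPNA2 had 561, 573 and 555 CPM at 12 h and 566, 576 and 578 CPM at 24 h, against 394, 397 and 401 CPM in DMSO. For the mitotic lists together the fitted median was 0.35 at 12 h and 0.43 at 24 h. RPS27L had 71.9, 70.8 and 69.1 CPM at 12 h and 64.2, 61.7 and 38.1 CPM at 24 h, with 24 h replicate 3 near its DMSO level. Replication-dependent histones had 0.08 at 12 h and 0.69 at 24 h, mitochondrially encoded mRNAs 0.23 and 0.71, and p53 targets 0.15 and -0.09. In the test of 24 h against 12 h edgeR called 0 of 14005 genes, with 1446 at an unadjusted p under 0.05, so none of these differences was called gene by gene, while DESeq2 called 5 and edgeR called 2780 without 24 h replicate 3. CPNE1, which fell at 12 h, was 1 of the 5 of DESeq2 and higher at 24 h than at 12 h (0.66 ± 0.11 on the log2 scale, SE, adjusted p = 1.27e-05). The others, named after their values were seen, were lower at 24 h: SEPTIN8, C10orf71, LDLRAD4 and AC076968.2.

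**Figure D5:**
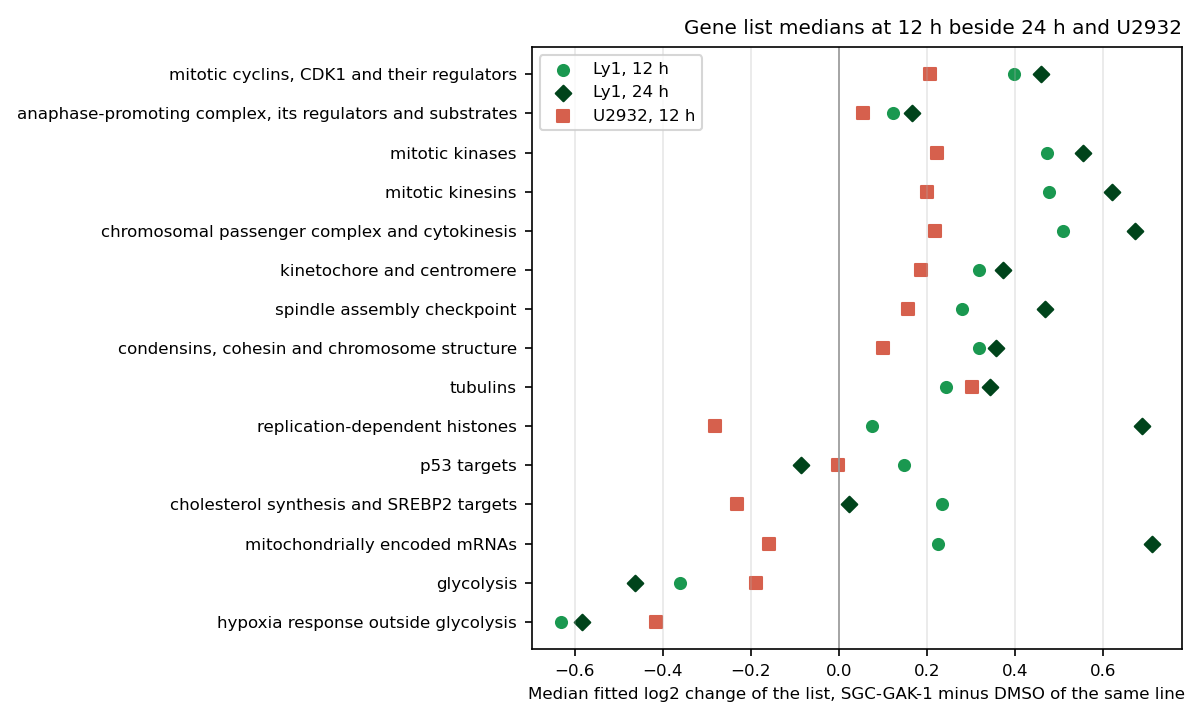
Median fitted log2 change of gene lists (horizontal axis, SGC-GAK-1 minus DMSO of the same line) in Ly1 at 12 h, in Ly1 at 24 h and in U2932 at 12 h. Both Ly1 groups use the same DMSO libraries, and the 8 mitotic lists lie above 0 in all 3, at 0.05 to 0.22 in U2932. In U2932 the mitotic lists together had medians of 0.03, 0.03 and 0.62 in replicates 1, 2 and 3. The list of condensins and cohesin was there below 0 in replicates 1 and 2 (-0.04 and -0.01), and the other mitotic lists were above.

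U2932, a line labelled as ABC, the activated B cell type, had the same treatment. For the mitotic lists together the 12 h median was 0.35 in Ly1 (0.46, 0.48 and 0.16 by replicate) and 0.16 in U2932 (0.03, 0.03 and 0.62 by replicate), and the difference between these medians was not tested. The difference between the lines in their 12 h response was tested over all 18 libraries, and edgeR called 0 of 16191 genes (smallest adjusted p = 0.881), with 404 at an unadjusted p under 0.05. DESeq2 called 1, the chloride cotransporter SLC12A7, with a difference of 2.65 ± 0.46 (Ly1 minus U2932, log2, SE). In Ly1 it stood at 1.02, 0.921 and 1.22 CPM at 12 h, against 0.0675, 0.0789 and 0.470 CPM in DMSO. Ly1 DMSO replicates 1 and 2 were thus below the level of 3 counts (0.101 and 0.118 CPM), and its U2932 levels are not given here. RPS27L had a difference of 0.88 ± 0.20 (Ly1 minus U2932, log2, SE) and was called without Ly1 24 h replicate 3 (adjusted p = 0.0176). Without Ly1 DMSO replicate 3 the calls were SLC12A7, DDB2, LINC01134 and AC133961.1, all named after their values were seen. By edgeR with all 18 libraries, 0 genes were shown to respond differently in the 2 lines.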

How the data were processed

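RNA from 18 samples was sequenced, and the 6 Ly1 libraries of the 12 h and DMSO groups were compared over all genes. The libraries were made with a NuGEN mRNA kit and 14 PCR cycles and sequenced in 2 runs whose reads were merged, per the labels' protocols. The authors deposited whole-number read counts per gene, not normalized, for 60656 genes, of which 27386 were 0 in all samples. cutadapt, STAR, Picard and hg38 are named per the submitters' processing notes. For their versions, the counting tool, the annotation and the use of strand, the sources used here give nothing, so reads of near-identical copies and of overlapping or antisense genes are uncertain.

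Counts were fitted with edgeR 4.0.16 in R 4.3.3 (TMM factors, default filter on low counts, robust quasi-likelihood F test, Benjamini-Hochberg adjustment over all genes tested, threshold 0.05). The 9 Ly1 libraries in 3 groups entered the fit without pairing, and the 18 libraries that of the line difference. The paired fit took the 6 libraries with the replicate number as a block. Same-numbered 12 h and DMSO libraries deviated together from their group means, with correlations of 0.380, 0.343 and 0.576 over 9470 genes in replicates 1, 2 and 3, and every one was over 0.1. For 24 h and DMSO they were 0.086, 0.297 and 0.229. Deviations from a group mean sum to 0 over its 3 libraries, so the correlations of the 3 numbers are not independent. SEs are from the quasi-likelihood fit. Changes within a replicate number are differences of log2 CPM with a prior count of 2. DESeq2 1.42.0 and limma 3.58.1 (voom) were alternatives, with another or no TMM scaling, no filter, fewer libraries and left-out libraries. Figures and motif searches used Python 3.11.15 with matplotlib 3.10.9. Promoter windows matched 164 of 199 selected genes.

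Genes named are the 12 higher and 12 lower with the smallest unadjusted p without pairing (protein-coding, at least 5 CPM in the higher group, same sign in each replicate number), the 8 largest rises and falls of the paired fit of the 2 groups (the blocked fit of 9 libraries called 0), GAK and related or cell cycle genes, up to 4 of each list by unadjusted p, and extremes of DMSO replicate 3. DDB2 and the small sets of calls were named by their values. The members and the 44 lists were chosen with earlier results of these data known. Some genes covered by these rules are not reported here.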

Additional observations from a re-analysis of the deposited data

Results flagged for a closer look

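In 6 of 105 named genes and in 1 gene list the 12 h change had opposite signs in Ly1 and U2932. The sign was the same in all 3 replicate numbers of each line. Many of the named genes were chosen for the same sign in each Ly1 number, so that part was fixed beforehand. Over all genes 17.4% were higher and 17.5% lower in each Ly1 number, and the share opposite in U2932 was not computed. Whether 6 of 105 genes or 1 list is more than the usual share was therefore not tested. For the 6 genes the difference between the lines (Ly1 minus U2932, log2) was tested in the fit of 18 libraries. There edgeR called 0 of the 6. It was 0.88 for RPS27L, which, with CPM scaled over all 18 libraries, had 0.76, 0.80 and 0.83 in replicates 1, 2 and 3 of Ly1 and -0.15, -0.06 and -0.05 in U2932. It was -1.13 for N4BP2L1, 0.64 for S1PR2, 0.66 for TRIM22, 0.60 for MVD and -0.68 for OSBPL7, whose U2932 changes were close to 0. For the list of fatty acid synthesis and SREBP1 targets the median difference was 0.21, with list medians of 0.01, 0.10 and 0.12 in Ly1 and -0.10, -0.09 and -0.20 in U2932. For the list the difference itself was not tested.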

How the results depend on the processing

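The count of genes called at 12 h against DMSO, 0 without pairing, depended on the fit, as did the other counts, and the cause was not tested. It was 94 by DESeq2, 200 with no filter on low counts and 1 with the 2 compared groups only. With the replicate block it was 0 over the 9 libraries and 123 with the 2 compared groups only. It was 1262 without all replicate 3 libraries, and 0 to 88 when 1 library was left out. In the paired fit, leaving out both libraries of 1 number, chosen after seeing the data, gave 0, 200 and 1526 for numbers 1, 2 and 3. For 24 h against 12 h the count was 5 by DESeq2, 211 with no filter, 5841 without replicate 3 libraries and 0 to 2780 with 1 library left out. For the line difference it was 1 by DESeq2, 21 with no filter, 729 without replicate 3 libraries and 0 to 4 with 1 library left out. The replicate block gave 0 for both.

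Of 38 list medians 23 kept their sign in all 21 alternatives. Without DMSO replicate 3, NF-kappaB targets went from -0.048 to 0.214 and replication-dependent histones from 0.076 to -0.017. Nuclear-encoded oxidative phosphorylation went from 0.025 to -0.046 and ribosome biogenesis from 0.041 to -0.038. Lysosome genes went from 0.061 to -0.005, and clathrin coat and endocytosis genes from 0.015 to -0.001. The mitotic lists together, glycolysis and hypoxia were not among the 38. Without DMSO replicate 3 their medians were 0.47, -0.03 and -0.05. Of 105 named genes 97 kept their direction throughout. The other 8, apart from ID3, lay near 0 or rested on DMSO replicate 3. ID3 was above 0 without DMSO replicate 1 (0.040), DMSO replicate 2 (0.076) or 12 h replicate 3 (0.084). Scaling by library totals only gave -0.0023 for GAK, -0.0060 for CDKN1A and -0.016 for MYC. With 1 library left out the range was -0.081 to 0.14 for CDKN1A, -0.036 to 0.061 for MYC, -0.12 to 0.046 for AAK1, -0.47 to 0.084 for ID3, -5.11 to 2.32 for ACTG2, -2.94 to 0.16 for NDUFA4L2 and -2.72 to 0.25 for PFKFB4. The highest values of ACTG2, NDUFA4L2 and PFKFB4 were those without DMSO replicate 3. MYC was -0.0045 without all replicate 3 libraries. In the paired fit with a pair left out, AAK1 was 0.057, CDKN1A -0.069 and -0.12, ID3 0.059 and MYC -0.0014 and -0.0050. Genes near or below 1 CPM, such as SLC12A7 in DMSO, rest on few counts, and 3 replicates in each group bound every test here.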
